A study of Mus musculus with 298 samples.

Results

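The step from week 8 to week 12 in mice whose BCR-ABL oncogene had been shut off again was described from 8 blood libraries, 2 from each of 4 mice, out of 298 libraries in the whole series. The mice are C57BL/6 with the genotype tTA+/-, BCR-ABL+/-: the SCLtTA driver produces the tetracycline-controlled activator, and BCR-ABL is made only when tetracycline is withheld. By the labels all mice, controls included, carry both transgenes, and they drank tetracycline at 0.5 g/L while the oncogene was off. The Tet Off-On (TOTO) mice, aged 6 to 8 weeks at the start, had tetracycline withdrawn for 6 weeks and then returned for 12 weeks, so that week 8 lies early and week 12 later in the period with tetracycline restored. The labels do not give whether the week 6 blood was drawn before or after its return. The same step in 3 control mice that stayed on tetracycline throughout (6 libraries) served as the reference. The TOTO mice 476 (male), 482, 483 and 545 (female) all belong to the labels' batch 2022_A, as does the control mouse 488 (female), while the control mice 489 (female) and 490 (male) belong to batch 2021_E. The labels name the tissue PBMC, but their extraction protocol starts from whole blood.

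BCR-ABL is the fusion tyrosine kinase of chronic myeloid leukaemia, and in this Tet-off model its expression in blood stem and progenitor cells gives an expansion of granulocytes. When a myeloid leukaemia recedes, normal blood formation is rebuilt from the marrow. Granulocyte precursors load their secondary granules with proteins such as Ngp and Camp before they leave the marrow, so these transcripts mark young neutrophils. B cells reach the blood as transitional cells with much surface IgM, and mature into naive cells that also carry IgD, CD23 and CD21. T cells come from the thymus.

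The human BCR-ABL row was checked first in each library. At week 6 it read 1.54, 6.37, 16.0 and 4.91 TPM (a length-corrected share of all transcripts) in mice 476, 482, 483 and 545. At week 8 all 4 TOTO libraries were listed at 0. At week 12 mice 476 and 545 were again listed at 0, and mice 482 and 483 read 0.236 and 0.26 TPM. Those traces lie inside the range of the control cohort, where 49 of 57 libraries over weeks 0 to 18 were listed at 0 and the highest read 0.716 TPM. At week 8 the human ABL1 row read 0.135, 0.1, 0.234 and 0.175 TPM in mice 476, 482, 483 and 545. At week 12 it read 0.154, 0.0797, 0.104 and 0.158 TPM. The highest control library read 0.165 TPM, which mice 483 and 545 exceeded at week 8 and no TOTO mouse at week 12. Human BCR read 0.0747, 0.0628, 0.117 and 0.124 TPM at week 8, and its highest control library 0.0887 TPM. Mice 483 and 545 stayed above that at week 12 (0.0957 and 0.126 TPM). The controls were not alike: mouse 489 was listed at 0 for human ABL1 and human BCR at weeks 8 and 12. Control mice 488 and 490 read 0.0481 and 0.1215 TPM for ABL1 at week 8, and 0.0667 and 0.0828 TPM at week 12. The reason was not tested. The endogenous Abl1, the mouse gene of the kinase, did not pass the test (log2 change -0.18 ± 0.14 SE as deposited and 0.13 ± 0.07 SE after rescaling, limma adjusted p = 0.29 and 0.36). The endogenous Bcr passed on the deposited scale only (log2 change -0.52 ± 0.12 SE, limma adjusted p = 0.015, and -0.20 with an adjusted p of 0.37 after rescaling).

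The libraries held the transcripts of whole blood. In the 8 TOTO libraries the red cell gene Hbb-bs ranged from 84976 to 232982 TPM, the platelet gene Ppbp from 899.6 to 2811 TPM, the neutrophil gene S100a8 from 197.5 to 357.1 TPM and the B cell gene Ms4a1 from 37.2 to 175 TPM. Cd3e of T cells ranged from 14.6 to 23.9 TPM, Csf1r of monocytes from 24.6 to 78.8 TPM and Ncr1 of NK cells from 2.77 to 6.97 TPM. Ly6g, a surface marker of mature mouse neutrophils, was low throughout, at 0.577 to 1.31 TPM. The read depth behind the TPM values is unknown. In whole blood fewer cells of a type and less RNA per cell cannot be told apart.

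The make-up of the libraries differed between the weeks in most TOTO mice, and this bears on every result given on the TPM scale. The 4 adult haemoglobin genes took 37.5, 39.5, 18.8 and 30.8% of the TPM total at week 8 in mice 476, 482, 483 and 545, and 36.1, 49.1, 44.9 and 51.2% at week 12. The share was higher at week 12 in 3 of 4 mice, by 13.7 percentage points on average (SD 12.2, n = 4). In mouse 476 it was slightly lower. An exact sign-flip test over the 4 mice gave p = 0.25, where 4 mice cannot go below 0.13. In the controls the share went from 56.0 to 52.3% on average, and the exact two-sided permutation test of TOTO against control changes gave p = 0.114 (adjusted 0.152 over 4 measures of composition). Rn7s2, a signal recognition particle RNA of many near-identical copies, took 31.4% at week 8 and 25.8% at week 12. The number of genes at 1 TPM or more went from 11416 to 10924 on average (exact sign-flip p = 0.25). It was 492 lower in the TOTO mice and 710 higher in the controls (exact permutation p = 0.0571, adjusted 0.114). The mitochondrially encoded share went from 0.443 to 0.332% in the TOTO mice, with all 4 lower (p = 0.13 by the exact sign-flip test), and from 0.183 to 0.384% in the controls. The exact permutation test of that difference gave p = 0.0286, the smallest 35 arrangements allow, or 0.114 after adjustment.

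**Figure D1:**
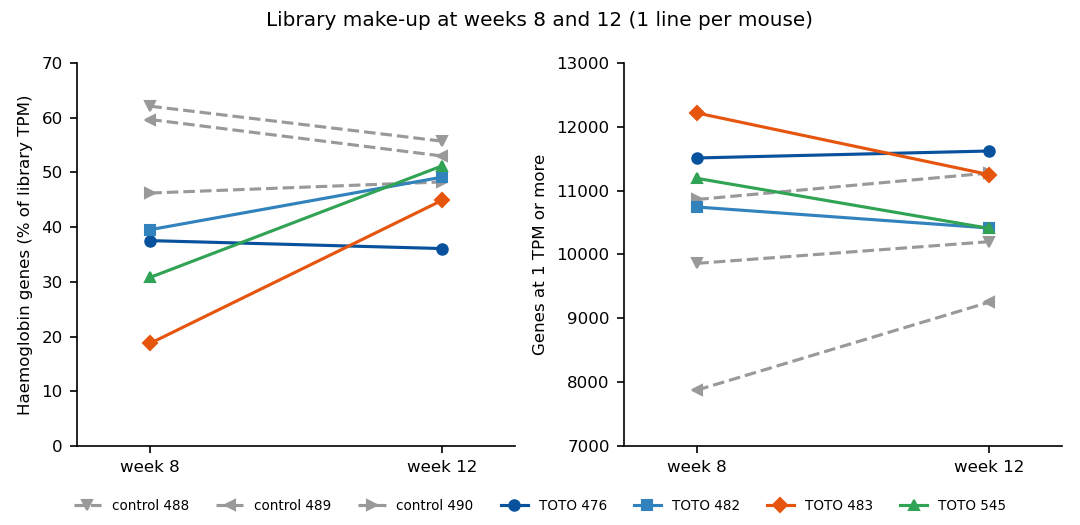
Share of each library's TPM taken by the 4 adult haemoglobin genes (left, percent) and number of genes at 1 TPM or more (right, axis not starting at zero) at weeks 8 and 12, with 1 line per mouse, solid for TOTO and dashed for control. The haemoglobin share of TOTO mouse 483 rises from 18.8 to 44.9%, while TOTO mouse 476 stays between 37.5 and 36.1%.

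Most results are therefore given on the deposited scale and after rescaling, in which every library was divided by its median-ratio size factor. Levels are in TPM, and changes are on the log2(TPM + 1) scale, which understates the change of low genes. On the deposited scale 48 of 10920 tested genes rose from week 8 to week 12 in the TOTO mice and 2374 fell (0.44% and 21.7% of those tested; limma, adjusted p under 0.05). After rescaling 119 rose and 191 fell (1.09% and 1.75%, or 2.84% in either direction). The share of higher calls among all calls was 1.98% on the first scale and 38.4% on the second. The median change over all tested genes was -0.30 on the deposited scale and -0.01 after rescaling. All 191 genes lower after rescaling were also lower as deposited, and 20 of the 119 higher genes were also higher as deposited. No gene passed in the controls on either scale (0.0%), although 2357 had an unadjusted limma p under 0.05 as deposited and 994 after rescaling. These counts rest on single mice: leaving out mouse 476 gave 6670 calls as deposited, and leaving out 482, 483 or 545 gave 311, 373 or 320. After rescaling the count was 342 without mouse 476 and 106, 21 and 35 without mice 482, 483 and 545.

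Ngp, a transcript of young neutrophils, had the largest fall among the genes named by rule. It (ENSMUSG00000032484.9, GRCm39 chr9:110248815-110252086, plus strand) encodes neutrophilic granule protein and read 9.32, 6.91, 13.4 and 20.5 TPM at week 8 in mice 476, 482, 483 and 545. At week 12 it read 0.384, 0.857, 0.883 and 0.717 TPM. The groups did not overlap, and the mean dropped from 12.5 ± 5.96 to 0.71 ± 0.23 TPM (SD, n = 4), a 17.7-fold lower level. The log2 change was -2.89 ± 0.19 SE (limma adjusted p = 4.3e-05) as deposited and -2.36 ± 0.18 SE (adjusted p = 0.00529) after rescaling. In the control mice Ngp stayed between 0.264 and 0.535 TPM in all 6 libraries. At week 12 the 4 TOTO mice thus read between 0.384 and 0.883 TPM, against 0.33 to 0.49 TPM in the controls. Ngp too passed the filter on low values, a mean of 1 TPM over the 14 libraries, only through week 8, so a difference was to be found once it was tested.

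Camp (chr9:109676442-109678685, minus strand), the cathelicidin antimicrobial peptide of the same granules, fell as well. It read 2.47, 1.5, 4.75 and 6.52 TPM at week 8 and 0.0288, 0.219, 0.224 and 0.188 TPM at week 12. Every mouse was lower at week 12, with a log2 change of -1.92 ± 0.21 SE (limma adjusted p = 0.0012), and -1.43 ± 0.18 SE after rescaling (adjusted p = 0.0093). Camp passed the filter on low values only through week 8, had to differ on that account, and could not be tested without mouse 483 or 545. Wfdc21, a small whey acidic protein made by neutrophils, went from 10.7, 6.64, 16.3 and 19.3 TPM to 6.14, 2.80, 4.33 and 3.59 TPM. Its log2 change was -1.39 ± 0.23 SE (limma adjusted p = 0.0056), and -1.03 ± 0.18 SE after rescaling (adjusted p = 0.026), where it was lost without mouse 482, 483 or 545. Higher levels had come before week 8: Ngp averaged 302 TPM at week 6 and 26.7 TPM at week 7, and Camp 58.6 TPM at week 6 and 9.62 TPM at week 7.

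Most other genes of the secondary granule did not pass. Of 13 tested members of that list, 4 fell as deposited (Ngp, Camp, Chil3 and Mmp8) and none rose. After rescaling 2 fell (Ngp and Camp), and 1, the membrane protease Adam8, rose. The list's median change was -0.30 as deposited and 0.04 after rescaling, close to the medians over all genes. Among all tested genes 21.7% fell as deposited and 1.75% after rescaling. Ltf, which encodes lactoferrin, differed from mouse to mouse: it went from 50.3 to 112 TPM in mouse 476 and from 5.44 to 6.27 TPM in mouse 482, but from 19.3 to 7.24 TPM in mouse 483 and from 40.0 to 1.82 TPM in mouse 545. Chil3, a chitinase-like secreted protein, changed by -0.58 ± 0.15 SE (limma adjusted p = 0.026) and Mmp8, the neutrophil collagenase, by -0.39 ± 0.11 SE (adjusted p = 0.035), and neither passed after rescaling (-0.25 and -0.09). In the controls they changed the other way as deposited, by 1.33 and 0.68 (limma adjusted p = 0.067 and 0.21). The TOTO minus control difference passed as deposited (-1.90 and -1.07, limma adjusted p = 0.010 and 0.014) and not after rescaling (adjusted p = 0.11 and 0.093). Of the 12 primary granule genes only 4 were abundant enough to test, and Mpo, Elane, Prtn3 and Ctsg were not among them. Among 22 tested genes of mature neutrophils, 1 rose (Slfn4) and 2 fell as deposited, and Wfdc21 alone fell after rescaling, with a list median of -0.17 and 0.16. The summed level of the 27 mature neutrophil genes in the table ranged from 921 to 1038 rescaled TPM at week 8 and from 964 to 1192 at week 12.

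B cell transcripts fell together, unevenly. Of 24 tested B cell genes 20 fell as deposited and none rose, with a median change of -0.69. After rescaling 10 fell, none rose, and the median was -0.35 against -0.01 over all genes. The rescaled median was -0.14, -0.47, -0.46 and -0.52 in mice 476, 482, 483 and 545, and -0.03, 0.06 and -0.06 in control mice 488, 489 and 490. The 10 genes that fell on both scales were Vpreb3, Spib, Ms4a1, Cd72, Cd79b, Ebf1, Fcrla, Ly6d, Pou2af1 and Tnfrsf13c. Those that passed on neither scale were Fcer2a, Cr2, Cxcr5 and Fcmr. Among all tested genes 21.7% fell as deposited and 1.75% after rescaling.

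Vpreb3 (ENSMUSG00000000903.4, chr10:75778891-75785496, plus strand), a surrogate light chain relative made mainly in developing B cells, had the largest change of the B cell list. It read 44.7, 28.3, 70.4 and 78.9 TPM at week 8 and 17.7, 9.40, 13.8 and 15.5 TPM at week 12. The weeks did not overlap, and the log2 change was -1.83 ± 0.18 SE (limma adjusted p = 0.00088), or -1.47 ± 0.11 SE after rescaling (adjusted p = 0.0053). On the rescaled scale Vpreb3 went from 32.5 ± 12.1 to 10.7 ± 2.32 TPM (SD, n = 4). The control means were 10.9 and 11.6 TPM at those weeks. At week 7 the rescaled level in the TOTO mice had been 1.83 to 3.87 TPM, so that week 8 was higher than both week 7 and week 12. At week 12 the TOTO mice, at 8.72 to 13.9 rescaled TPM, overlapped the controls, at 10.0 to 13.7.

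Spib, an Ets transcription factor of B cells, followed the same course. It read 101, 70.7, 151 and 166 TPM at week 8 and 56.0, 30.8, 43.6 and 41.9 TPM at week 12, with a log2 change of -1.44 ± 0.18 SE (limma adjusted p = 0.0021), or -1.09 ± 0.11 SE after rescaling (adjusted p = 0.0054). Ms4a1, which encodes CD20, went from 126, 88.5, 175 and 137 TPM to 73.7, 37.2, 55.1 and 47.4 TPM. Its log2 change was -1.29 ± 0.17 SE (limma adjusted p = 0.0027), and -0.94 ± 0.12 SE after rescaling (adjusted p = 0.010). Cd72, an inhibitory co-receptor of B cells, changed by nearly the same amount in each mouse after rescaling, by -0.76, -0.66, -0.63 and -0.65 (limma adjusted p = 0.0053). The early B cell factor Ebf1 and the octamer coactivator Pou2af1 had smaller rescaled changes of -0.42 ± 0.08 SE and -0.44 ± 0.07 SE (limma adjusted p = 0.035 and 0.022). After rescaling Ms4a1 was lost without mouse 483 or 545, Pou2af1 without 482, 483 or 545, and Ebf1 in all such fits but the one without mouse 476.

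Of the B cell genes that passed on neither scale, 3 are given here, chosen after their values were seen. Other B cell genes, Ms4a1 and Cd72 among them, fell on both scales. Fcer2a, which encodes CD23, read 69.9, 74.5, 89.5 and 69.3 TPM at week 8 and 101, 47.4, 87.7 and 66.9 TPM at week 12. The weeks overlapped, and the log2 change was -0.05 ± 0.17 SE (limma adjusted p = 0.81), or 0.29 ± 0.14 SE after rescaling (adjusted p = 0.32). Mouse 482 was the exception there, with a rescaled change of -0.32 against 0.52, 0.50 and 0.46 in mice 476, 483 and 545. Cr2, the complement receptor CD21, gave -0.07 ± 0.17 SE as deposited and 0.26 ± 0.13 SE after rescaling (limma adjusted p = 0.73 and 0.34). Cxcr5, the follicle-homing chemokine receptor, gave -0.24 ± 0.16 SE and 0.09 ± 0.09 SE (limma adjusted p = 0.23 and 0.67).

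Of the heavy chain constant genes Ighm passed and Ighd did not, and the difference between them was not tested. Ighm (ENSMUSG00000076617.10, chr12:113382178-113386350, minus strand), the constant region of IgM, read 1072, 987, 1737 and 1718 TPM at week 8 and 763, 441, 689 and 565 TPM at week 12. Its log2 change was -1.15 ± 0.18 SE (limma adjusted p = 0.0050), or -0.80 ± 0.11 SE after rescaling (adjusted p = 0.011), where it was lost without mouse 482, 483 or 545. Ighd (chr12:113370224-113379944), the IgD constant region that is spliced from the same primary transcript, read 194, 221, 263 and 259.9 TPM at week 8 and 275, 117, 229 and 200.3 TPM at week 12. It did not pass on either scale (-0.25 ± 0.19 SE, limma adjusted p = 0.29, and 0.10 ± 0.16 SE, adjusted p = 0.81). The ratio of Ighm to Ighd within a library needs no scaling between libraries. It averaged 5.79 ± 1.03 at week 8 and 3.10 ± 0.465 at week 12 in the TOTO mice (SD, n = 4), and 2.95 ± 0.275 and 2.81 ± 0.407 in the controls (SD, n = 3). At week 8 the 4 TOTO mice lay between 4.46 and 6.61, above all 3 controls, and at week 12 between 2.78 and 3.78, overlapping the controls at 2.45 to 3.25, with mouse 482 above them. The ratio of Vpreb3 to Fcer2a went from 0.736 ± 0.317 to 0.191 ± 0.0316, with controls at 0.181 and 0.190. It had been above the controls at week 6 too, at 0.344 ± 0.122 against 0.1655. These ratios were chosen after their values were seen and carry no test.

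**Figure D2:**
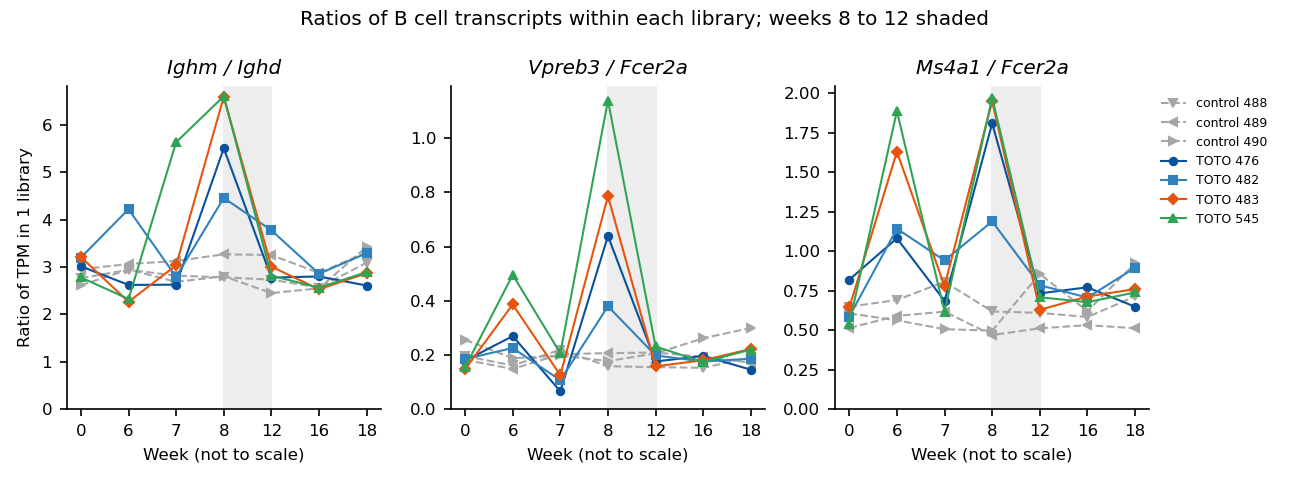
Ratios of TPM between 2 genes of the same library (Ighm to Ighd, Vpreb3 to Fcer2a, Ms4a1 to Fcer2a) at weeks 0, 6, 7, 8, 12, 16 and 18, with 1 line per mouse, coloured and solid for TOTO, grey and dashed for control; the shaded band marks weeks 8 to 12. The TOTO mice stand above the controls at week 8, with Ighm to Ighd at 4.46 to 6.61, and overlap them at week 12, at 2.78 to 3.78, where mouse 482 lies above every control. At week 6 they also stand above the controls for Vpreb3 to Fcer2a (0.2255 to 0.4955 against 0.148 to 0.1875). The same holds for Ms4a1 to Fcer2a (1.081 to 1.886 against 0.5617 to 0.6905).

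Immunoglobulin V segments, the gene pieces that code for the variable part of antibodies, fell as a class. Their promoters are known for an octamer, ATGCAAAT in either orientation, to which Oct proteins and their coactivator bind. For each chain family the V segment with the smallest p after rescaling is shown, to let the shared element be seen next to the values: 100 bases of GRCm39, from 150 to 51 bases before the annotated start (GENCODE M39), 5′ to 3′ on the gene's strand, with the octamer in capitals.
Ighv6-6 (chr12:114398915-114399014, minus strand): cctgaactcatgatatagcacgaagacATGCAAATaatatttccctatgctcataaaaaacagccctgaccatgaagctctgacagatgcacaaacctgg
Igkv1-135 (chr6:67586547-67586646, plus strand): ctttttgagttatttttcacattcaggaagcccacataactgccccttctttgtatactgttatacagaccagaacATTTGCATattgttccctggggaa
Iglv2 (chr16:19079660-19079759, minus strand): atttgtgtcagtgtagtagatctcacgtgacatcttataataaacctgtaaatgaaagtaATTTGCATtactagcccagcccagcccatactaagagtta

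The heavy chain segment carries the octamer in the forward letters, starting 123 bases before its start, and both light chain segments carry it on the opposite strand, starting at 74 and 90 bases before. Over windows from 250 bases before to 50 bases after the start, on both strands, 134 of 170 tested V segments held it (78.8%), against 323 of all 10899 tested genes with a window (2.96%, V segments included) and 149 of 9655 protein-coding genes (1.54%). Of the 170 V segments 156 fell as deposited and none rose, and 62 fell after rescaling. The median change was -0.82 and -0.50. Among all tested genes 21.7% fell as deposited and 1.75% after rescaling. Without mouse 483 or 545 only 16 or 26 genes of all kinds were called lower after rescaling. Most of the 62 V segment calls were thus lost in each of those fits. Segments with the octamer had a median rescaled change of -0.49 (50 of 134 fell) and segments without it -0.53 (12 of 36 fell). The 2 medians lie close together, and no test was made of their difference. Reads of V segments of near-identical sequence could have been split between them.

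Heavy chain V segments fell in 78 of 84 cases as deposited and 33 after rescaling, with a rescaled median of -0.53. For the kappa chain it was 74 and 26 of 82, with a median of -0.46. All 3 lambda V segments fell as deposited and 2 after rescaling, with a median of -0.98. These counts stand beside shares of falls of 21.7% as deposited and 1.75% after rescaling over all tested genes. Ighv6-6 read 19.7, 16.3, 33.5 and 31.9 TPM at week 8 and 10.2, 6.05, 8.69 and 8.14 TPM at week 12. It had a log2 change of -1.46 ± 0.16 SE (limma adjusted p = 0.0012), and -1.11 ± 0.10 SE after rescaling (adjusted p = 0.0053). Igkv1-135 went from 88.3, 78.8, 134 and 143 TPM to 49.8, 37.9, 50.0 and 41.3 TPM, and Iglv2 from 28.2, 29.1, 38.5 and 71.5 TPM to 14.1, 12.6, 15.6 and 17.6 TPM. Each of the 3 segments was lower at week 12 in every mouse.

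Light chain constant genes were lower as well. Iglc1, a lambda constant region, read 167, 151, 227 and 404 TPM at week 8 and 84.5, 50.4, 69.1 and 85.1 TPM at week 12 (log2 change -1.62 ± 0.19 SE, limma adjusted p = 0.0014; rescaled -1.27 ± 0.12 SE, adjusted p = 0.0053). Igkc, the kappa constant region, changed by -0.84 ± 0.18 SE (limma adjusted p = 0.013) and did not pass after rescaling (-0.50 ± 0.12 SE, adjusted p = 0.075). Iglc2, the other lambda constant gene named here, changed by -1.03 ± 0.19 SE (limma adjusted p = 0.0088), and by -0.68 ± 0.14 SE after rescaling (adjusted p = 0.043), a call kept only in the fit without mouse 476 of 7 that left out 1 mouse. Of 12 tested immunoglobulin genes, V segments aside, 6 fell as deposited and 3 after rescaling (Ighm, Iglc1 and Iglc2). Over all tested genes the shares of falls were 21.7% and 1.75%. Igha, Ighg1, Ighg2b and the plasma cell gene Sdc1 passed on neither scale.

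Several of the largest falls lay outside the lists. Niban3, a protein of B cells, read 50.1, 24.3, 69.7 and 59.0 TPM at week 8 and 13.6, 8.88, 12.0 and 8.69 TPM at week 12. It changed by -2.06 ± 0.20 SE (limma adjusted p = 0.00088), and by -1.69 ± 0.16 SE after rescaling (adjusted p = 0.0053). Serinc5, a membrane protein that restricts retroviruses, changed by -1.71 ± 0.21 SE, the kinase anchor Akap12 by -1.72 ± 0.19 SE and the chromatin factor Cecr2 by -1.45 ± 0.18 SE, with limma adjusted p = 0.0018, 0.0012 and 0.0018. After rescaling they gave -1.34, -1.33 and -1.08 (adjusted p = 0.009, 0.0075 and 0.009), and each was lost without mouse 483, Serinc5 and Cecr2 also without mouse 545. Rnu1b1 and Rnu1b6, copies of the U1 small nuclear RNA, were named by their deposited changes of -1.94 ± 0.52 SE and -1.60 ± 0.47 SE (limma adjusted p = 0.027 and 0.035). Neither passed after rescaling, their reads may be shared between copies, and mouse 483 alone moved Rnu1b6 from 154 to 8.93 TPM.

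Genes of immature cells were among the falls. Myb, a transcription factor of blood progenitors and early lymphoid cells, read 6.24, 2.24, 7.48 and 5.75 TPM at week 8 and 2.16, 1.16, 2.14 and 1.5 TPM at week 12. Its log2 change was -1.16 ± 0.16 SE (limma adjusted p = 0.0029), and -0.81 ± 0.12 SE after rescaling (adjusted p = 0.017). Sox4, needed for early B cell development, changed by -0.83 ± 0.15 SE and Cd93, a surface marker of transitional B cells that myeloid precursors also carry, by -0.77 ± 0.13 SE (limma adjusted p = 0.0070 and 0.0064). Both passed after rescaling (-0.52 and -0.44, adjusted p = 0.017 and 0.034). After rescaling Myb was lost without mouse 483 or 545, Sox4 without 482, 483 or 545, and Cd93 in all such fits but the one without control mouse 490. Sox4 and Aurkb passed the filter on low values only through week 8. Of 7 tested stem and progenitor genes 5 fell as deposited, while after rescaling 2 fell (Myb and Sox4) and 1 rose (Cd27, which lymphocytes carry as well). Of 40 replication-dependent histone genes 19 fell as deposited and 6 after rescaling, with H4c9 (-0.87 ± 0.11 SE, limma adjusted p = 0.0021) and H1f2 (-0.80 ± 0.12 SE, adjusted p = 0.0038) foremost. After rescaling they gave -0.53 and -0.46 (limma adjusted p = 0.031 and 0.047), called in 2 and 0 of the 7 fits that left out 1 mouse. Histone genes have near-identical copies. Among all tested genes 21.7% fell as deposited and 1.75% after rescaling, the shares to set beside the stem and progenitor and histone counts. Of 16 cell cycle genes none passed after rescaling. As deposited Ube2c, a ubiquitin carrier of mitosis, and Nusap1 rose, and the mitotic kinase Aurkb fell.

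**Figure D3:**
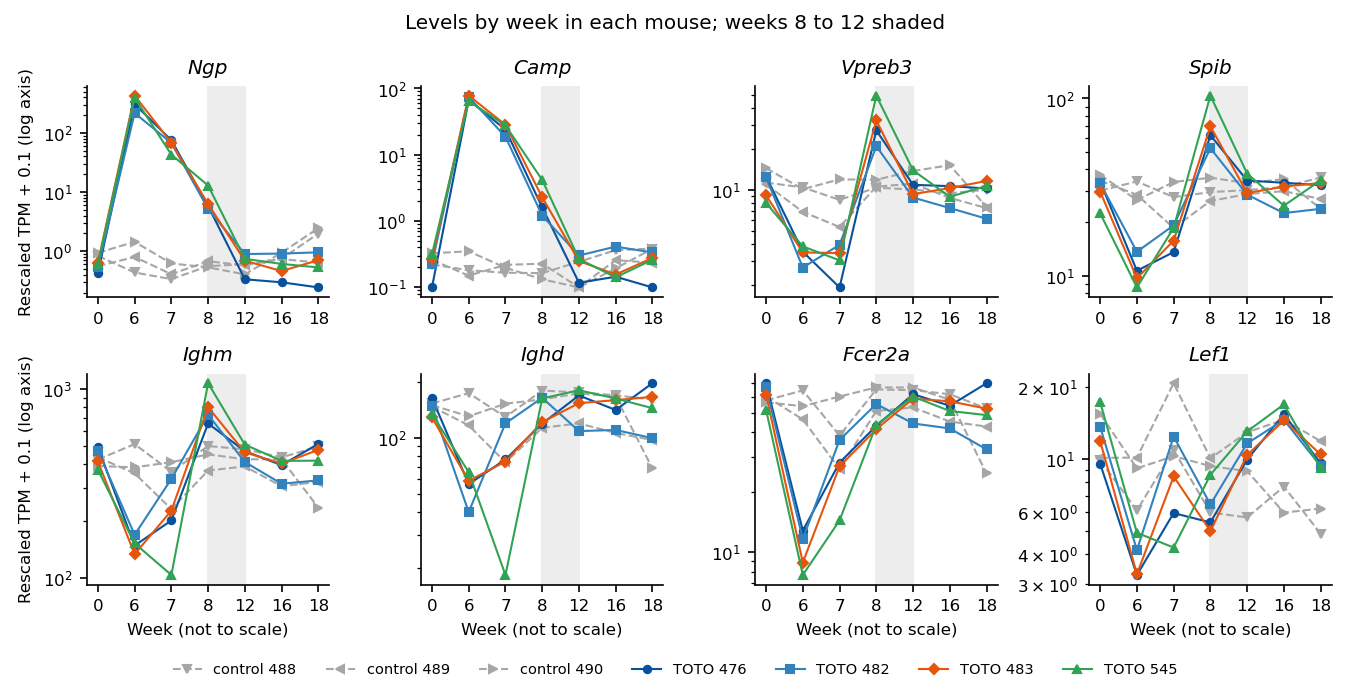
Rescaled TPM plus 0.1 on a log axis for 8 genes at weeks 0, 6, 7, 8, 12, 16 and 18 (spacing not to scale), with 1 line per mouse, coloured and solid for TOTO, grey and dashed for control; the shaded band marks weeks 8 to 12. Ngp and Camp descend from week 6, Vpreb3, Spib and Ighm peak at week 8, Ighd and Fcer2a have no such peak in 3 of 4 TOTO mice, and Lef1 is higher at week 12 than at week 8 in all 4.

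T cell transcripts rose in the TOTO mice. Of 22 tested T cell genes, 3 rose as deposited (Bcl11b, Cd4 and Trbc1) and none fell, and 19 rose after rescaling. The median change was 0.34 as deposited and 0.61 after rescaling, against -0.30 and -0.01 over all genes. The rescaled median was 0.51, 0.65, 0.76 and 0.52 in mice 476, 482, 483 and 545, and 0.10, 0.21 and -0.14 in the controls. As deposited it was 0.53, 0.40, 0.34 and 0.04 in the TOTO mice, and the controls rose as well, by 0.19, 0.66 and 0.07. Only Ccr7, Cd3d and Lat of the 22 did not pass on either scale. In the TOTO mice 21 of 22 genes had a positive change as deposited and 22 of 22 after rescaling. Among all tested genes 0.44% rose as deposited and 1.09% after rescaling. Without mouse 483 or 545 only 5 or 9 genes of all kinds were called higher after rescaling. Most of the 19 T cell calls were thus lost in each of those fits.

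Cd4, the co-receptor of helper T cells, read 2.29, 4.97, 3.47 and 5.71 TPM at week 8 and 7.93, 5.89, 7.13 and 5.86 TPM at week 12. The weeks did not overlap, by a small margin, and the log2 change was 0.64 ± 0.21 SE as deposited and 0.84 ± 0.16 SE after rescaling (limma adjusted p = 0.047 and 0.034), with mice 476 and 483 highest. On each scale the Cd4 call was lost in 6 of the 7 fits that left out 1 mouse, all but the one without control mouse 489. Lef1, a transcription factor of naive T cells, read 8.69, 8.57, 10.6 and 13.6 TPM at week 8 and 16.0, 12.4, 15.3 and 14.4 TPM at week 12. It rose by 0.76 ± 0.09 SE after rescaling (limma adjusted p = 0.0089), and its deposited change of 0.47 ± 0.16 SE did not pass (adjusted p = 0.051). Trbc1, a constant region of the T cell receptor beta chain, rose by 0.72 ± 0.07 SE after rescaling (limma adjusted p = 0.0053), and the T cell transcription factor Bcl11b by 0.75 ± 0.10 SE (adjusted p = 0.012). As deposited they gave 0.40 ± 0.13 SE and 0.56 ± 0.14 SE (limma adjusted p = 0.049 and 0.022). The rescaled calls of Lef1 and Bcl11b were lost without mouse 483, and that of Bcl11b also without mouse 545. Of 18 tested T cell receptor V segments 2 rose after rescaling, beside 1.09% of all tested genes, and all 18 had a positive change. The summed level of 26 T cell genes ranged from 155.5 to 248.9 rescaled TPM at week 8 and from 256.3 to 345.3 at week 12, while the controls ranged from 165.1 to 246.7 and from 176.3 to 282.3.

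**Figure D4:**
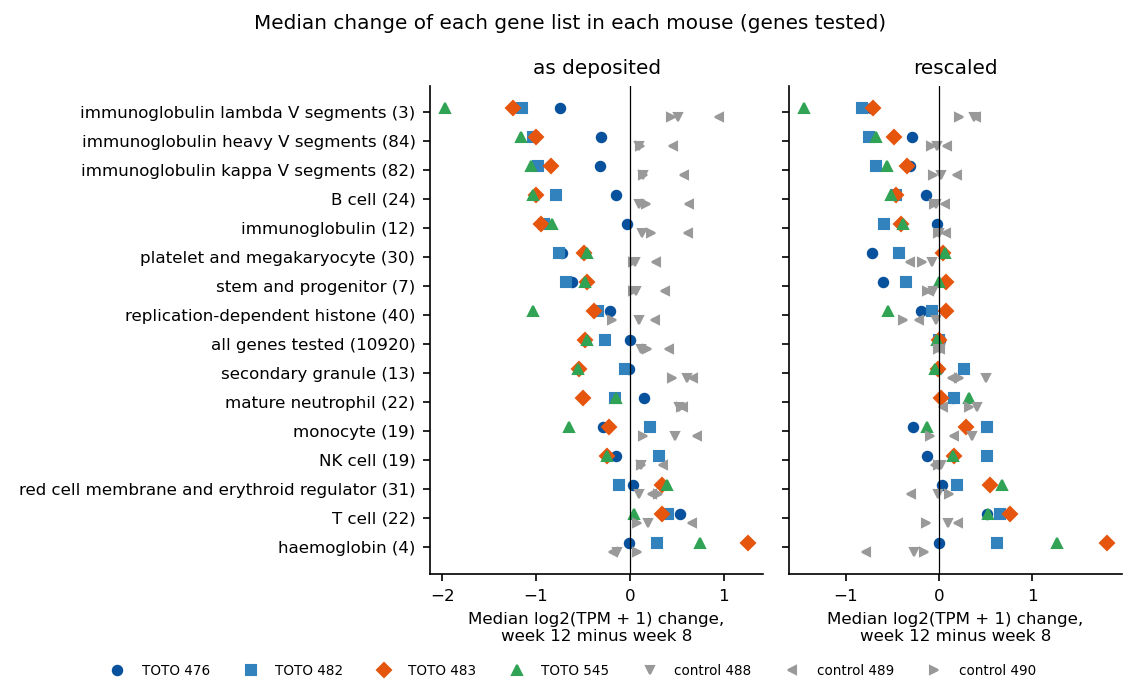
Median change of each gene list, week 12 minus week 8, on the log2(TPM + 1) scale in each mouse, as deposited (left) and rescaled (right); coloured points are TOTO mice, grey triangles control mice, and the number of genes tested is in brackets. The B cell and V segment lists lie left of zero and the T cell list right of zero in all 4 TOTO mice on both scales; the platelet list is below zero in all 4 as deposited and in 2 after rescaling.

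Red cell transcripts were called on the deposited scale, and none of these 2 lists passed after rescaling. All 4 adult haemoglobin genes were above 0 in the fit and none passed (median 0.56 as deposited and 0.91 after rescaling). For Hbb-bs the log2 change was 0.56 ± 0.22 SE as deposited and 0.91 ± 0.41 SE after rescaling (limma adjusted p = 0.074 and 0.30). Hba-a1 and Hba-a2 are near-identical copies, and their values of 0.58 and 0.56 cannot be taken as independent. Of 31 tested genes of the red cell membrane and erythroid regulation 6 rose as deposited, Ank1, Bpgm, Car2 and Slc4a1 among them, and 8 fell. Over all tested genes 0.44% rose and 21.7% fell, so the share of falls in this list was near that of all genes. Of the falls, Tal1 changed by -0.58 ± 0.12 SE and Gata1 by -0.47 ± 0.12 SE (limma adjusted p = 0.011 and 0.020). None of the 31 genes passed after rescaling.

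Slc4a1, the band 3 anion exchanger, read 40.9, 89.5, 27.9 and 57.7 TPM at week 8 and 52.0, 95.2, 72.1 and 114 TPM at week 12. It was higher in every mouse and rose by 0.68 ± 0.18 SE (limma adjusted p = 0.028), but mice 476 and 482 rose by only 0.34 and 0.41 after rescaling against 1.83 and 1.48 in mice 483 and 545. Tspo2, an erythroid porphyrin and cholesterol transporter, changed by 0.70 ± 0.17 SE, Prxl2a, a peroxiredoxin-like protein, by 0.81 ± 0.21 SE, Gpx1, a glutathione peroxidase, by 0.63 ± 0.16 SE and the poly(A) polymerase Tent5c by 0.62 ± 0.19 SE (limma adjusted p = 0.019, 0.026, 0.023 and 0.041). Rsad2, the antiviral protein viperin, was in the same group with 0.80 ± 0.24 SE (limma adjusted p = 0.037): mouse 476 was nearly level (115 and 117 TPM), while mouse 483 went from 67.4 to 199.5 TPM. Of 32 interferon response genes 2 rose and 4 fell as deposited and none passed after rescaling. Among all tested genes 0.44% rose and 21.7% fell as deposited, so the share of falls in this list was the smaller. Apol11b, an apolipoprotein L family member, changed by 0.69 ± 0.16 SE and the Schlafen gene Slfn4 by 0.65 ± 0.17 SE (limma adjusted p = 0.018 and 0.023). Of Tspo2, Prxl2a, Gpx1, Tent5c, Rsad2, Apol11b and Slfn4, Gpx1 and Tspo2 passed after rescaling, with 0.98 ± 0.20 SE and 0.96 ± 0.20 SE (limma adjusted p = 0.0493 and 0.0495). Each of these 2 calls was lost in 6 of the 7 fits that left out 1 mouse, all but the fit without mouse 476. The deposited change of Slc4a1 was 0.34, 0.09, 1.34 and 0.97 in mice 476, 482, 483 and 545, and that of Slfn4 was 0.57, 0.60, 0.17 and 1.28, beside haemoglobin shares that rose most in mice 483 and 545. The part of the haemoglobin share in these results was not tested.

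Platelet transcripts passed on the deposited scale only. All 30 tested platelet and megakaryocyte genes fell as deposited, with a median change of -0.60. None passed after rescaling, where the median was -0.25. Over all tested genes 21.7% fell as deposited and 1.75% after rescaling, with median changes of -0.30 and -0.01. The rescaled median was -0.72 and -0.43 in mice 476 and 482, 0.05 and 0.06 in mice 483 and 545, and between -0.31 and -0.08 in the controls. Itgb3, integrin beta 3 of the fibrinogen receptor, read 248.7, 216, 220.0 and 126 TPM at week 8 and 149.8, 114, 140.0 and 94.1 TPM at week 12. It was lower in 4 of 4 mice (log2 change -0.68 ± 0.13 SE, limma adjusted p = 0.0088), and on the rescaled scale changed by -0.72, -0.59, -0.11 and 0.10. P2rx1, an ATP-gated channel, F5, coagulation factor V, and Plek, the protein kinase C substrate pleckstrin, changed by -0.66, -0.67 and -0.69 (limma adjusted p = 0.0069, 0.0093 and 0.0096), and none of these passed after rescaling.

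Among lists of general cell function no gene passed after rescaling in nuclear oxidative phosphorylation (56 tested), glycolysis (19) or the ribosomal proteins (77). As deposited 20, 9 and 0 of them fell, with Cox5a, a subunit of cytochrome oxidase, at -0.67 ± 0.11 SE (limma adjusted p = 0.0060). Their rescaled medians were -0.07, -0.02 and 0.05. Of 19 NK cell genes 1 fell as deposited and none passed after rescaling. Of 19 monocyte genes 3 fell as deposited and 1 rose after rescaling. Among all tested genes 21.7% fell as deposited, a larger share than in the NK cell and monocyte lists, and 1.09% rose after rescaling.

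Against the control mice the direct test of the difference in change was made gene by gene. On the deposited scale 6 genes were higher and 5337 lower in TOTO minus control (0.0549% and 48.9%), with a median difference of -0.55 over all genes. After rescaling 5 were higher and 5 lower (0.0458% each, 0.0916% in all), with a median of -0.02. The 5 lower genes were Ngp, Vpreb3, Ighv6-6, Rnase6 and Cd180, and the 5 higher were Als2cl, Faah, Ikbke, Brpf3 and Plcg1. All 10 depended on single mice: none was called when TOTO mouse 482, 483 or 545 or any 1 control was left out. With the control of the TOTO batch alone, 2 genes passed as deposited and 1, which is not among the 10, after rescaling. That fit has 1 control mouse, which is assumed to vary like the TOTO mice.

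Ngp differed by -2.92 ± 0.30 SE as deposited (limma adjusted p = 0.0045) and by -2.30 ± 0.27 SE after rescaling (adjusted p = 0.043). Ngp passed the filter on low values only through the TOTO libraries of the earlier week. A difference from the controls was therefore to be found once Ngp was tested. For Vpreb3 the differences were -2.20 ± 0.27 SE and -1.55 ± 0.16 SE (limma adjusted p = 0.010 and 0.036), and for Ighv6-6 -1.93 ± 0.24 SE and -1.32 ± 0.15 SE (adjusted p = 0.010 and 0.041). Iglc1 (-2.08 ± 0.28 SE) and Niban3 (-2.37 ± 0.31 SE) passed as deposited (limma adjusted p = 0.011 for each) and not after rescaling (adjusted p = 0.052 and 0.073). Rnase6, an antimicrobial ribonuclease, and Cd180, a toll-like receptor relative of B cells, were lower in all 4 TOTO mice and higher in all 3 controls after rescaling. Cd180 changed by -0.36, -0.46, -0.43 and -0.45 in the TOTO mice and by 0.40, 0.30 and 0.30 in the controls, and Rnase6 by -0.52, -0.52, -0.62 and -0.69 and by 0.20, 0.38 and 0.39. The differences were -0.76 ± 0.08 SE and -0.91 ± 0.09 SE (limma adjusted p = 0.036 for each).

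Als2cl, a guanine nucleotide exchange factor relative of alsin, rose on both scales. It read 3.81, 3.97, 4.44 and 3.01 TPM at week 8 and 7.15, 6.65, 7.00 and 5.65 TPM at week 12, with no overlap. After rescaling it changed by 0.69, 0.87, 0.90 and 1.07 in the TOTO mice and by -0.48, -0.17 and -0.28 in the controls, a difference of 1.20 ± 0.12 SE (limma adjusted p = 0.036). Ikbke, an IKK-related kinase, Plcg1, the phospholipase C of T cell receptor signalling, and Brpf3, a histone acetyltransferase scaffold, passed after rescaling only (0.83, 0.67 and 0.72, limma adjusted p = 0.043 for each). Marchf3, a ubiquitin ligase listed by its small p, did not pass (0.61 ± 0.25 SE, limma adjusted p = 0.056, and 1.20 ± 0.34 SE after rescaling, adjusted p = 0.19). The mitochondrially encoded mt-Atp6, a subunit of ATP synthase, was lower by -2.09 ± 0.51 SE (limma adjusted p = 0.017), and the controls bear on this: in control mouse 490 it went from 35.4 to 329 TPM. Without mouse 490 the difference was -1.27 (adjusted p = 0.042), and without control mouse 489 it was not called (-2.35, adjusted p = 0.079). After rescaling its difference did not pass (-1.43 ± 0.63 SE, adjusted p = 0.36). Of the fixed B cell list only Vpreb3, and of the fixed T cell list no gene, passed against the controls after rescaling. The B cell list had a rescaled median difference of -0.34. For the T cell list the direction depended on the scale: the median difference was -0.02 as deposited, with 10 genes above 0 and 12 below, and 0.53 after rescaling, with 22 of 22 above 0.

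**Figure D5:**
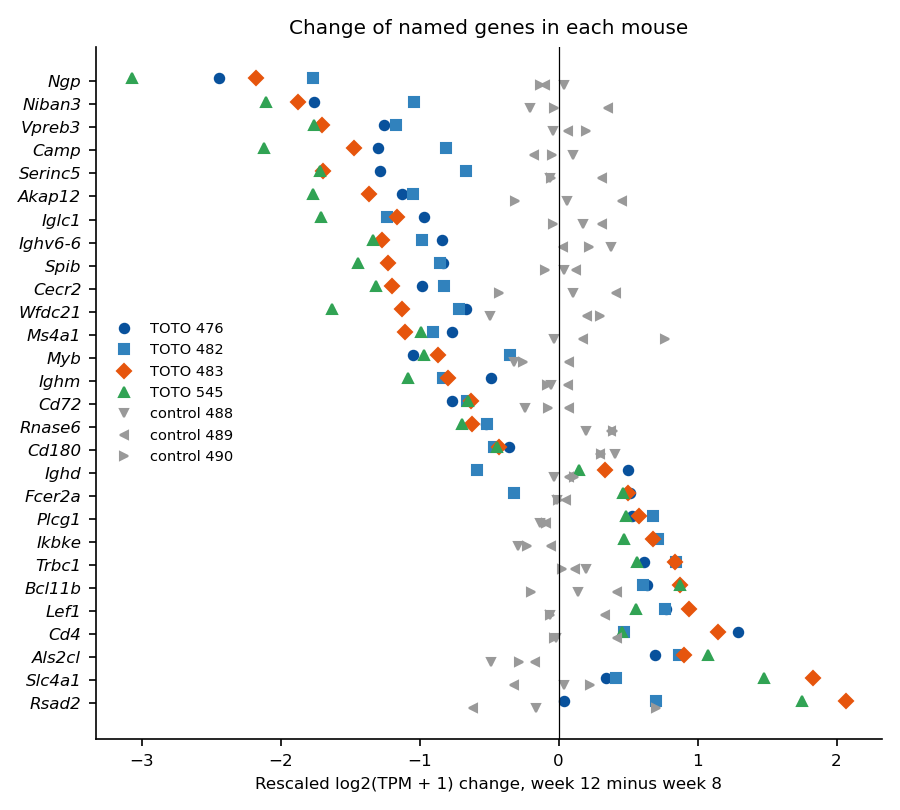
Rescaled change of 28 named genes, week 12 minus week 8 on the log2(TPM + 1) scale, with 1 point per mouse; coloured points are TOTO mice and grey triangles control mice. Ngp lies at -3.07 to -1.77 in the TOTO mice and at -0.14 to 0.04 in the controls; for Slc4a1 and Rsad2 mice 483 and 545 lie at 1.48 to 2.07, above mice 476 and 482.

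The libraries of weeks 16 and 18 show the later levels. Ngp averaged 0.561 TPM at week 16 and 0.507 TPM at week 18 in the TOTO mice, Vpreb3 9.24 and 9.62 rescaled TPM, and the ratio of Ighm to Ighd 2.69 and 2.92. Lef1 averaged 11.1 rescaled TPM at week 12, 15.2 at week 16 and 9.51 at week 18, and the controls ranged from 4.76 to 14.4 over those weeks. With week 16 in place of week 12 as the end, 468 genes passed after rescaling in the TOTO mice, 239 of them higher.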

How the data were processed

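Blood RNA libraries (ribosomal RNA depleted, reverse stranded) came from samples with a RIN above 4.0, per the labels. The authors deposited 1 table of TPM for 298 libraries and 14605 genes. The submitters' processing notes name STAR, Salmon and GRCm39, and versions are not given in the sources used here. TPM values of a library sum to a fixed total, so a value is a share and read depth is unknown. Gene positions come from GENCODE M39.

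Libraries were rescaled by median-ratio size factors over 4143 genes. Changes of log2(TPM + 1), week 12 minus week 8 within mouse, were fitted with limma 3.58.1 (R 4.3.3; eBayes with trend) for 4 TOTO and 3 control mice over 10920 genes with a mean of at least 1 TPM, with Benjamini-Hochberg adjustment at 0.05. The fit was tested on simulated data. Shares were compared by exact permutation and sign-flip tests over mice (scipy 1.17.1). Alternatives were the pseudocount, filter, scaling, start and end week, cohorts in the fit, batch, block and each mouse left out. The mouse is the block: the deviations of a mouse's 2 libraries correlated by 0.187 to 0.409 in TOTO and 0.526 to 0.548 in control mice. The highest correlation with another mouse of the cohort was -0.08 to 0.199 in TOTO and -0.314 to -0.145 in control mice. For TOTO mouse 483 the 2 values were nearly equal, at 0.187 with itself and 0.184 with another mouse. No 2 of the 14 libraries were identical. Named genes are the 10 largest rises and falls in TOTO and 5 each way against control (mean of at least 5 TPM, same sign in 4 of 4 mice), up to 4 per list by p, Bcr, Abl1, the human rows, Rn7s2 and the haemoglobin genes; other list members are named only to resolve a count. Fcer2a, Cr2, Cxcr5, Ighd, Cd93, Ltf, Cd180, Rnase6, Ebf1, Pou2af1, Igkv1-135, Iglv2 and Faah were named after their values were seen. The members and gene lists were chosen with earlier results of these data known.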

Additional observations from a re-analysis of the deposited data

Results flagged for a closer look

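Of 77 values of change examined in the 4 TOTO mice, 3 had 1 mouse far from the other 3, where chance flags about 1 group in 20. These were the rescaled changes of Fcer2a (gap over range 0.937, mouse 482 at -0.32 against 0.46 to 0.52), Ikbke (0.85, mouse 545 at 0.47 against 0.68 to 0.71) and Rnu1b6 (0.859, mouse 483 at -3.36 against -0.73 to -0.29).

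The rescaled change differed between TOTO and control mice by the test of the difference for 6 named genes that passed on both scales: Ngp (-2.30), Vpreb3 (-1.55), Ighv6-6 (-1.32), Rnase6 (-0.91), Cd180 (-0.76) and Als2cl (1.20). For Ngp a difference was to be found once it was tested. It passed the filter on low values only through the TOTO libraries of the earlier week.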

How the results depend on the processing

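The count of genes called from week 8 to 12 in the TOTO mice (2422) was 310 after rescaling, 245 without haemoglobin genes and Rn7s2, 1480 with no filter, 155 with all 4 cohorts in the fit, 1461 with week 16 as the end, 9774 with week 7 as the start (9742 higher), 1316 with TOTO mice alone, 1358 with the control of batch 2022_A alone and 311 to 6670 leaving out 1 mouse. The count against control (5343) was 10 after rescaling, 3 without haemoglobin genes and Rn7s2, 40 with all 4 cohorts, 2 (control of batch 2022_A alone), 8353 (control weeks averaged) and 2 (without control 489) to 7881 leaving out 1 mouse. In the controls alone 3 genes passed as deposited with a pseudocount of 0.1 and 4 with a mean of at least 5 TPM. Far more passed with control weeks averaged (4628, of which 4625 higher) and with week 16 as the end (2121, of which 2114 higher). With week 7 as the start 77 passed. After rescaling none passed in the controls with week 16 as the end. Leaving out 1 mouse gave 0 to 25 in the controls as deposited. The rescaled TOTO count (310) was 468 with week 16 as the end, 117 with the control of batch 2022_A alone and 21 to 342 leaving out 1 mouse; against control (10) it was 73, 1 and 0 to 11 in the same order. Without the mouse as replicate block 8 and 1 genes passed as deposited, and 54 and 0 after rescaling. The mitochondrial share difference (-0.312 percentage points) was -0.402 to -0.144 leaving out 1 mouse, the latter without control 490. The causes were not tested.

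With week 7 as the start (haemoglobin share 62.1 to 70.4% in the TOTO libraries) the log2 change turned sign for Prxl2a -0.30, Rsad2 -0.56, Tspo2 -0.21, Slc4a1 -0.14, Niban3 2.31, Vpreb3 2.75, Akap12 1.34, Serinc5 1.76, Iglc1 3.42, Rnu1b6 1.48, Ighv6-6 1.79, Cecr2 1.44, Chil3 0.95, Mmp8 0.23, Spib 2.54, Ms4a1 2.63, Cd72 2.22, Ighm 2.95, Iglc2 3.47, Igkc 2.78, Wfdc21 0.007, P2rx1 0.79, Itgb3 0.67, F5 1.35, Plek 1.35, Tmem14c 1.48, Tal1 1.00, Gata1 0.82, H4c9 0.60, H1f2 0.70, Myb 0.93, Cox5a 1.66, Bcr 1.08, Abl1 1.44, Hba-a1 -0.44, Hba-a2 -0.54, Hbb-bs -0.61, Hbb-bt -0.51, Fcer2a 2.76, Cr2 2.13, Cxcr5 2.25, Ighd 3.00, Cd93 1.07, Cd180 1.93, Rnase6 2.23, Ebf1 2.15, Pou2af1 2.32, Igkv1-135 2.99, Iglv2 2.39; and against control for Niban3 1.70, Vpreb3 2.05, mt-Atp6 2.16, Iglc1 2.52, Ighv6-6 1.10, Rnase6 1.36, Cd180 0.99. Chil3 turned with week 16 as the end (0.487; rescaled 0.882), as did Mmp8 (rescaled 0.238), and Fcer2a was called higher without mouse 482 (rescaled 0.493). Read depth is not known, so no limit from it can be given.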
